A study of Mus musculus with 12 samples.

Results

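The transcripts of 7 genes that encode muscle transcription factors were followed in AGO2 libraries of mouse tibialis anterior muscle: Mef2a, Mef2c and Mef2d, the MyoD family genes Myod1, Myog and Myf6, and Six4. A peak belonged to one of them if it overlapped the gene by at least 1 nt on the same strand in the GENCODE M21 annotation, with no threshold on its height. The 7 genes, of 17902 with any listed peak, held 145 of 92451 peaks in the WT library of set 1 and 224 of 119859 in its mir-486 KO library. In set 2 they held 284 of 244814 in WT and 283 of 256219 in mir-486 KO. The direct comparisons of the libraries listed the same numbers of peaks for these genes, which makes 1872 of the 1426686 listed peaks in all 8 lists.

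The study sought the RNAs that miR-486 targets in muscle by chimeric eCLIP, with mir-486 KO muscle as the control. In this method AGO2 is cross-linked to RNA in the tissue and immunoprecipitated. MicroRNA and messenger RNA are then ligated, and the product is sequenced beside a paired input. There were 2 library sets, each with 1 total AGO2 library and 1 input for WT and for mir-486 KO, from males of 6 months. WT mice were wild type and labelled C57BL/6, and mir-486 KO mice were miR-486-/- and labelled FVB N/J. The methods describe backcrossing to a shared C57BL/6J background, so genotype and labelled strain cannot be told apart from the labels alone. The methods give 3 muscle samples per genotype and work done in duplicate, but not which animals each set holds, and the spread between sets may be technical. At the Mir486 locus the WT libraries had 2 and 4 listed peaks and both KO libraries had 0.

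MEF2 proteins bind the control regions of muscle genes together with MyoD family proteins, and the switch between their partners and repressors follows the activity of the fibre. The MyoD family proteins drive myoblasts into the muscle lineage and through differentiation, and Myf6 stays expressed in mature fibres. Six4 and its relatives act upstream of both in the embryo and take part in the fast fibre programme. AGO2 carries a microRNA to messages that pair with its seed, mostly in the 3′ UTR, and lowers their stability or translation.

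The microRNAs below are those with seed matches inside or within 25 nt of 3′ UTR peaks of these genes in all 4 libraries, with miR-206-3p, a muscle microRNA made under MyoD family control, for comparison. Mature sequences are from RefSeq for GRCm38.p6, and capitals mark the seed, bases 2 to 8.
miR-30a-5p: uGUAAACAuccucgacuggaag
miR-92a-3p: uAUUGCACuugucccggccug
miR-206-3p: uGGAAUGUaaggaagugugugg

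The 3 sites are shown 5′ to 3′ on the strand of the gene in GRCm38.p6, each in a window of 30 nt, with the 7-nt word complementary to the seed in capitals. They lie in the 3′ UTRs of Mef2d, at chr3:88170417-88170446 and chr3:88169402-88169431 on the plus strand, and of Six4, at chr12:73103011-73103040 on the minus strand.
Mef2d, miR-30a-5p word: tgagctgggtgTGTTTACaagggatcagcg
Mef2d, miR-92a-3p word: tgagatgtacaGTGCAATagctccccgtcc
Six4, miR-30a-5p word: tgtttgtttgttTGTTTACttttactccat

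For each of the MyoD family genes, the 30 nt at the centre of its most-read stretch listed in all 4 libraries are shown. They come from exon 2 of Myf6, within the coding sequence, at chr10:107493842-107493871 on the minus strand. The others come from the 3′ UTR of Myog at chr1:134292249-134292278 and of Myod1 at chr7:46378839-46378868, both on the plus strand. None of the 12 microRNA words searched lies in them.
Myf6: agcccccagtggccaagtgtttcggatcat
Myog: aggagctatccggttccaaagcctctgggg
Myod1: gtctcaggtgtaacaggtgtaaccataccc

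Before the results, the libraries themselves differed. A peak was called enriched if its log2 fold over input and the −log10 of its p-value were both at least 3. By this rule 3.57% of all listed peaks were enriched in WT of set 1, 0.848% in mir-486 KO of set 1, 1.42% in WT of set 2 and 1.23% in mir-486 KO of set 2, so the WT library of set 1 stood apart with the highest share and the KO library of set 1 had the lowest. Genes of mature myofibres had by far the most reads of the marker lists, with Myh4, the fast myosin heavy chain, between 230260 and 1368048 reads at its peaks. Of the 5 satellite cell and myoblast markers, Myf5, a defining marker, was at 0 in all 4 libraries and Pax7 had between 0 and 29 reads. The summed reads of the 5 were 133 and 199 in WT and 179 and 204 in mir-486 KO. Chodl alone held 118 and 103 of these in WT and 152 and 138 in mir-486 KO. In bulk muscle, fewer cells of a type and less RNA per cell cannot be told apart.

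The MyoD family transcripts stood far above input and the MEF2 transcripts did not. For each gene the reads of its listed peaks were summed in the library and in its input, scaled to library depth, and given as a pooled log2 fold. Adjoining peaks can share reads, so the sums weight such reads more than once. Myf6, the MyoD family member of mature fibres, had pooled log2 folds over input of 4.46 and 3.12 in WT and 1.94 and 3.33 in mir-486 KO, with set 1 before set 2. Myog, which drives the differentiation of myoblasts, had 3.87 and 2.30 in WT and 0.80 and 2.56 in mir-486 KO. Myod1, which commits cells to the muscle lineage, had 2.76 and 1.64 in WT and 1.61 and 1.67 in mir-486 KO. In each of these genes the WT library of set 1 was highest and the KO library of set 1 lowest, and the genotypes overlapped over both sets.

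Placed among all genes with at least 20 reads in a library, Myf6 had percentiles of 93.5 to 97.9 in the 4 libraries. Those of Myog were 72.0 to 97.2 and those of Myod1 88.7 to 93.2. The median gene stood at 1.02 in WT and 0.44 in mir-486 KO of set 1, and at 0.59 and 0.50 in set 2. Genes at least 2-fold over input made up 51.2% in WT of set 1, 20.3% in mir-486 KO of set 1, 28.2% in WT of set 2 and 24.6% in mir-486 KO of set 2. The MyoD family genes were 3 of 3 over this level in WT of both sets and in mir-486 KO of set 2, and 2 of 3 in mir-486 KO of set 1, with Myog below it.

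Six4, a homeodomain factor of the fast fibre programme, lay near the middle of the genes, with 0.97 and 0.59 in WT and 0.49 and 0.79 in mir-486 KO, and percentiles between 47.1 and 66.8. Mef2d had 0.78 and 0.00 in WT and 0.29 and -0.05 in mir-486 KO. Mef2a had 0.59 and 0.13 in WT and -0.14 and 0.00 in mir-486 KO. Mef2c, which acts in muscle, heart and vessels, had 0.14 and -0.12 in WT and -0.20 and -0.03 in mir-486 KO. None of the MEF2 genes reached 2-fold over input in any library, and their percentiles ran from 9.16 to 40.4. Mef2a was the only one of the 7 genes with both WT libraries above both KO libraries, where 33.6% of all 6458 genes measured in the 4 libraries had that order. The opposite order, both KO libraries above both WT libraries, was seen in 0 of the 7 genes and in 1.86% of all genes.

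**Figure D1:**
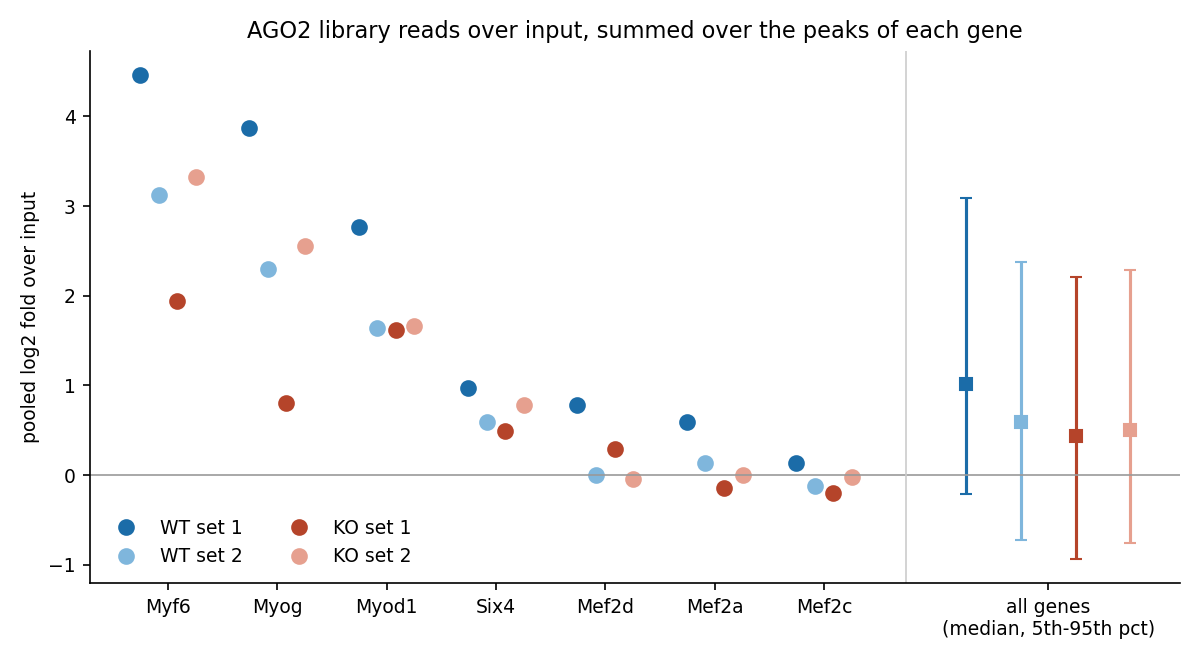
Pooled log2 fold over input (y axis) of each of the 7 genes in the 4 AGO2 libraries, with squares and bars for the median and the 5th to 95th percentile of all genes with at least 20 reads. Myf6 and Myog in WT of set 1 are highest, at 4.46 and 3.87, and the MEF2 genes lie between -0.20 and 0.78.

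The enriched peaks, a count over the same reads as the pooled folds, lay almost all in the MyoD family genes. The 7 genes had 12 enriched peaks of 145 in WT of set 1, where 3.57% of all peaks were enriched, 6 of 284 in WT of set 2 (1.42%), 7 of 283 in mir-486 KO of set 2 (1.23%) and 0 of 224 in mir-486 KO of set 1 (0.848%). The MyoD family genes, with only 16 to 23 listed peaks in a library, held 12 of the 12 in WT of set 1, 5 of the 6 in WT of set 2 and 7 of the 7 in mir-486 KO of set 2. Within the family, Myf6 alone held 6, 5 and 7 of these, all in its coding sequence. Myog and Myod1 held 3 each in WT of set 1 and 0 in every other library. The remaining enriched peak was in an intron of Mef2c at chr13:83638999-83639242, with 93 reads in WT of set 2 against 7 in its input, and a log2 fold of 3.21. Among the MEF2 genes that was 1 enriched peak of 256 in that library, and 0 of 118, 197 and 249 in the others. Six4 had 0 of 9 to 12 peaks enriched in every library.

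Within Myf6 the reads fell on the coding sequence. It held 6, 8, 6 and 11 coding peaks in WT set 1, WT set 2, KO set 1 and KO set 2, and 1 peak in the 3′ UTR in each. Coding coverage, the share of the 726 coding nt inside a listed peak, was lowest in WT of set 1, at 363 nt, and was 69.6% in WT of set 2 and 74.9% and 72.7% in mir-486 KO, against 5.75% to 23.6% of the 504 nt of its 3′ UTR. Over all genes, the median log2 fold of coding peaks was 0.68 and 0.21 in WT and 0.12 and 0.18 in mir-486 KO, and that of 3′ UTR peaks was 0.87, 0.60, 0.61 and 0.56 in the same order. In Myf6 the median over its coding peaks was 4.22 and 3.25 in WT and 1.89 and 3.60 in mir-486 KO, and its single 3′ UTR peak stood at 2.66, 1.49, 2.17 and 1.84. The coding median was above the 3′ UTR peak in all libraries but the KO library of set 1.

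The strongest stretch of Myf6 was exon 2, chr10:107493811-107493901 in all 4 libraries. The highest peak there had 595 reads in WT of set 1 against 5 in input, a log2 fold of 5.77 with a 95% Clopper-Pearson interval from 4.54 to 7.40. In WT of set 2 it had 480 reads against 18 (4.21), in mir-486 KO of set 1 123 against 8 (2.74), and in mir-486 KO of set 2 530 against 14 (4.48). The KO library of set 1 was lowest and that of set 2 was above the WT library of its own set. The intervals cover counting error only, and an input count of 0 is written as 1 in the lists.

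Myog and Myod1 had most of their reads in the 3′ UTR, though Myod1 also had a peak in its 5′ UTR. All peaks of Myog with over 20 reads lay in its 3′ UTR, of which 31.1% to 46.0% was covered. Its stretch shared by all 4 libraries, chr1:134292217-134292309, had 80 reads against 2 in the input in WT of set 1 and 66 against 9 in WT of set 2. In mir-486 KO it had 10 against 2 in set 1 and 61 against 5 in set 2. These were log2 folds of 4.20, 2.35, 1.12 and 2.85, so the KO library of set 2 lay between the WT libraries.

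In Myod1 the 3′ UTR was covered over 79.1% and 95.1% in WT and 77.3% and 94.2% in mir-486 KO. Its stretch chr7:46378780-46378927 had 90 reads against 4 in WT of set 1 and 300 against 41 in WT of set 2, and 75 against 9 and 392 against 43 in mir-486 KO. Myod1 also had a peak in the 5′ UTR, at chr7:46376495-46376624 in WT of set 1, with 85 reads against 1 in input and a log2 fold of 5.28. It had 14 reads in mir-486 KO of set 1 and 176 in mir-486 KO of set 2, where it was 2.17, and no peak was listed there in WT of set 2, which had 66 reads under that KO peak. The reads were thus higher in WT in set 1 and higher in mir-486 KO in set 2.

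**Figure D2:**
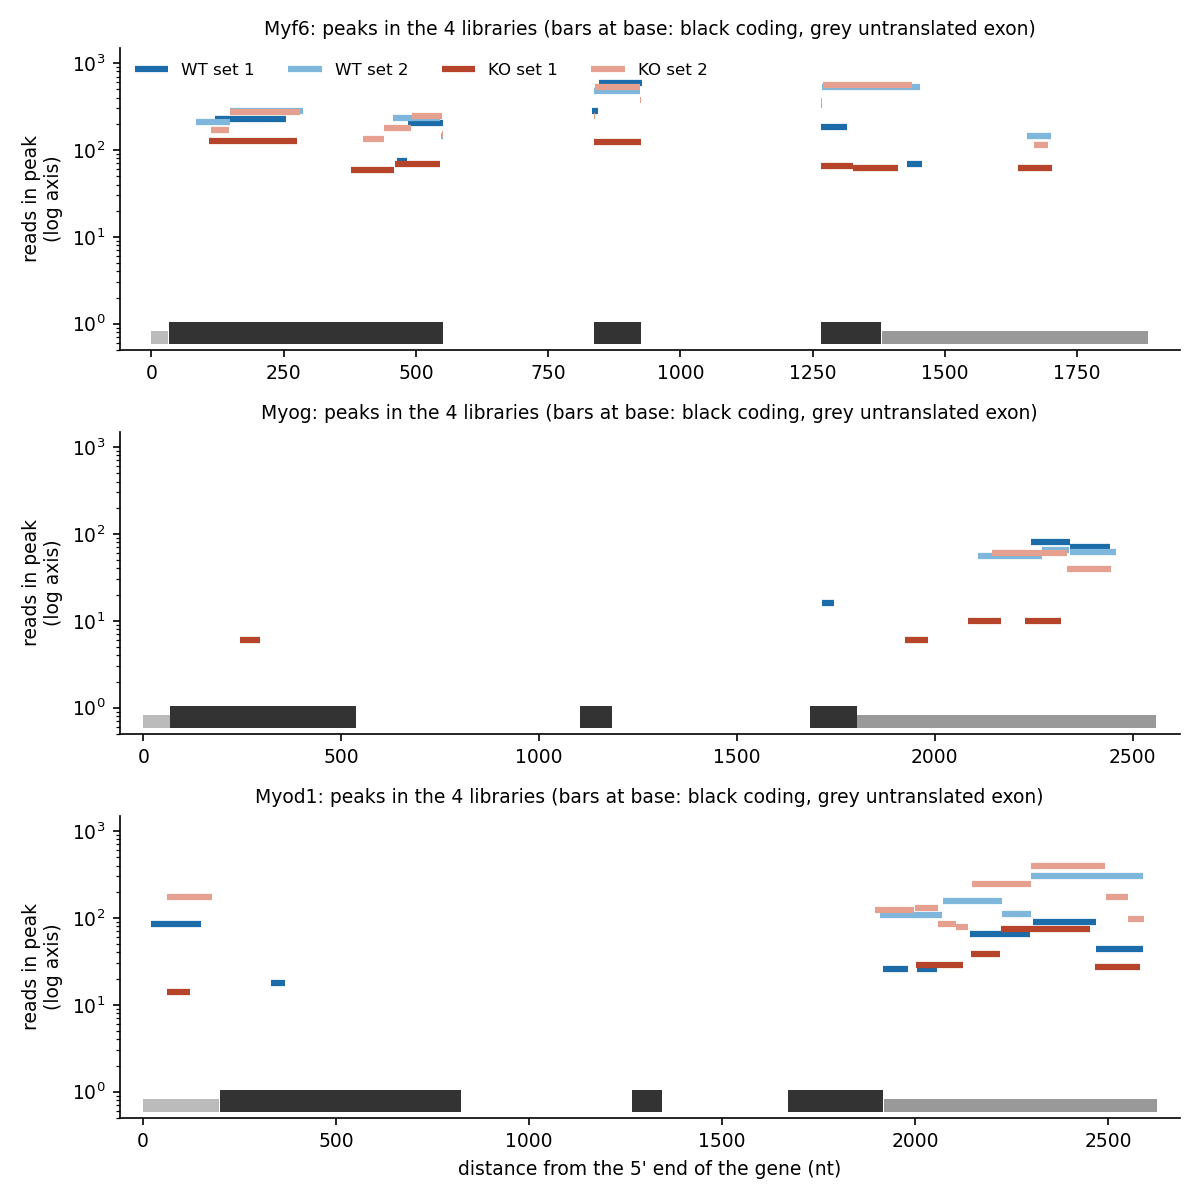
Listed peaks of Myf6, Myog and Myod1 in the 4 libraries, with the distance from the 5′ end of the gene in nt on the x axis and the reads in each peak on a log axis. Bars at the base mark coding exons in black and untranslated exons in grey. Myf6 peaks sit mainly on coding exons, with 595 reads at the highest. Myog and Myod1 peaks lie mainly in the 3′ UTR, and Myod1 also has a 5′ UTR peak.

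The MEF2 genes, which are much longer, carried many small peaks. Introns held 41.5% and 49.6% of their listed peaks in WT and 53.3% and 54.6% in mir-486 KO, against 23.4%, 43.4%, 41.3% and 44.7% of all peaks in the same order. The intronic peaks had a median of 4 and 13 reads in WT and 5 and 13 in mir-486 KO. They covered at most 5.63% of the intronic sequence of any MEF2 gene. By contrast 41.0% to 86.2% of the coding sequence was covered in each of the 3 genes in every library. No peak of the MyoD family genes or of Six4 had its midpoint in an intron.

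The 3′ UTR and coding peaks of the MEF2 genes had lower medians over input than their intronic peaks in all 4 libraries. The median log2 fold of their 3′ UTR peaks was 0.35 and -0.92 in WT and -0.18 and -0.56 in mir-486 KO, below the medians of all 3′ UTR peaks in every library. Their coding peaks stood at 0.38 and -0.14 in WT and -0.57 and -0.15 in mir-486 KO. Their intronic peaks stood at 0.46 and 0.73 in WT and 0.38 and 0.56 in mir-486 KO, close to the 0.46, 0.80, 0.38 and 0.72 of all intronic peaks. In set 1 both intronic medians are the fold of 3 library reads per 1 input read, a value typical of peaks with few reads. There the likeness to all genes and the rank of introns above exons cannot be told apart from low counts.

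Among the stretches of Mef2c listed in all 4 libraries, the most reads were at a pair of 5′ UTR exons. At chr13:83504274-83504376 the reads were 63 against 6 in input and 270 against 62 in WT, and 45 against 19 and 213 against 58 in mir-486 KO, with log2 folds of 2.27, 1.60, 0.04 and 1.11. At chr13:83520385-83520481 they were 75 against 7 and 267 against 73 in WT, and 33 against 18 and 214 against 75 in mir-486 KO, with log2 folds of 2.30, 1.34, -0.33 and 0.75. Both WT libraries were above both KO libraries at each of these exons. Of all genes 33.6% showed that order in their pooled folds, which is not a share over single peaks. Compared directly at the most-read peak of the first exon, set 1 had 66 reads in WT against 45 in mir-486 KO. That was a depth-scaled log2 of 0.71 with an interval from 0.14 to 1.29. Set 2 had 275 against 213, a log2 of 0.49 with an interval from 0.23 to 0.76.

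In Mef2a the shared stretch with the most reads lay in the 3′ UTR at chr7:67233080-67233178. It had 39 and 105 reads in WT and 13 and 149 in mir-486 KO, with log2 folds over input of 0.35, 0.76, -0.67 and 0.41. Its WT and KO libraries overlapped, with the KO library of set 1 lowest. In Mef2d the most-read shared stretch was the part of the 3′ UTR with the miR-30a-5p word shown above, described with the seed matches.

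**Figure D3:**
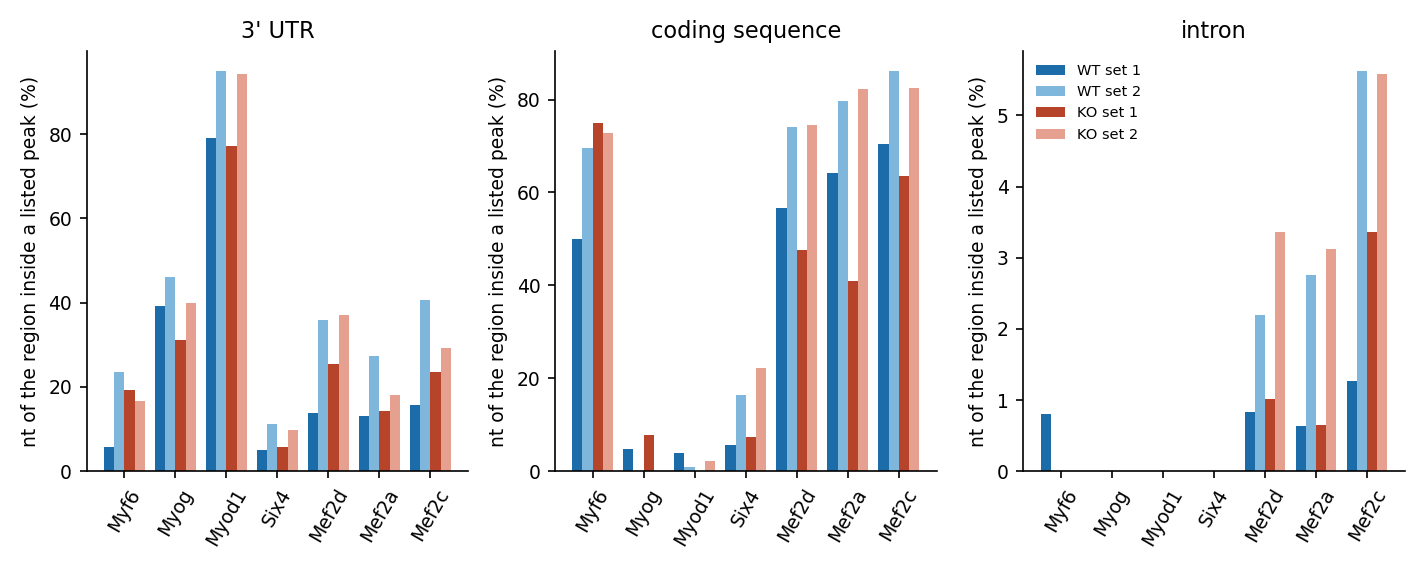
Share of the 3′ UTR, coding sequence and intron of each gene that lay inside a listed peak (y axis, percent, with its own scale in each panel) in the 4 libraries. Myod1 has the highest 3′ UTR share, up to 95.1%, Mef2c the highest coding share, up to 86.2%, and no gene exceeds 5.63% of its introns.

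Six4 had 7 or 8 of its 9 to 12 peaks in the 3′ UTR, which is long at 8211 nt and was covered over only 4.97% to 11.1%. Its end-most stretch, chr12:73099678-73099799, was listed in all 4 libraries with 13 and 66 reads in WT and 22 and 35 in mir-486 KO. The log2 folds over input were 2.57 and 1.93 in WT and 0.94 and 1.04 in mir-486 KO. Both WT values were above both KO values at this stretch, with small counts in set 1. Compared directly at this stretch, the libraries of set 1 had 14 reads in WT against 22 in mir-486 KO, a depth-scaled log2 of -0.49 with an interval from -1.57 to 0.54. Those of set 2 had 66 against 56, a log2 of 0.36 with an interval from -0.18 to 0.90. The direct comparisons thus had opposite signs, and both intervals included 0.

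Peaks recurred between sets chiefly in exons. Of the 96 exon peaks of the 7 genes in WT of set 1, 85 overlapped a WT peak of set 2, or 88.5% (95% Wilson interval 80.6 to 93.5), against 78.3% of all exon peaks. In the other direction 100 of 157 recurred, or 63.7% (55.9 to 70.8), against 45.2%. Of the intronic peaks, all in MEF2 genes, 19 of 49 recurred in set 2 (26.4 to 52.8%) and 19 of 127 in set 1 (9.79 to 22.2%), against 40.1% and 8.41% of all intronic peaks. In mir-486 KO 69.7% of 119 and 72.1% of 147 exon peaks recurred in the other set, against 74.5% and 42.3% of all. Stretches listed in all 4 libraries numbered 27 in Mef2c, 12 in Mef2a, 12 in Mef2d, 5 in Six4, 4 in Myf6, 4 in Myod1 and 2 in Myog.

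Next, the libraries were compared directly to ask whether AGO2 held these messages differently without mir-486. An exact two-sided permutation test of 2 against 2 libraries cannot give a p below 0.333, and no test between genotypes was made. WT and mir-486 KO were instead compared within each set. The reads of the WT and KO library of a set were summed over the union of their peaks, and the log2 of WT over KO was scaled by the depth of the libraries. Over all genes with at least 20 reads its median was 0.29 in set 1 and 0.01 in set 2. Genes at least 2-fold higher in WT made up 13.9% in set 1 and 2.32% in set 2, and those at least 2-fold higher in mir-486 KO 3.83% and 1.55%.

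Myog had 249 reads in WT against 45 in mir-486 KO in set 1, a log2 of 2.63, and 184 against 139 in set 2, a log2 of 0.53. Myf6 had 1892 against 670 in set 1, a log2 of 1.66, and 2792 against 2997 in set 2, a log2 of 0.02. Myod1 had 355 against 192 in set 1, a log2 of 1.05, and 740 against 1294 in set 2, a log2 of -0.68. All 3 MyoD family genes were thus over 2-fold higher in WT in set 1 and none was 2-fold different in set 2. Among all genes the percentiles of Myog, Myf6 and Myod1 were 99.7, 97.3 and 87.6 in set 1. In set 2 they were 91.3, 51.1 and 4.16, with Myod1 among the genes most shifted toward mir-486 KO.

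For these 3 genes the values of the 2 sets lay further apart than their mean lay from 0. The mean over the 2 sets was 1.58 ± 1.49 (SD, n = 2) for Myog, 0.84 ± 1.16 for Myf6 and 0.18 ± 1.22 for Myod1, so that of the 3 only Myog had a mean above its SD. Set against their inputs, the WT minus KO differences in pooled log2 fold were 3.08 and -0.26 for Myog, 2.52 and -0.20 for Myf6 and 1.15 and -0.02 for Myod1. In set 2 the order of Myog therefore turned when the inputs were taken into account. In the highest-read peak of Myog in set 1, 82 reads against 10 gave 3.20 with an interval from 2.24 to 4.31. In set 2, 78 against 61 gave 0.48 with an interval from -0.03 to 0.98. In that of Myod1, 124 against 75 gave 0.89 (0.46 to 1.32) in set 1 and 300 against 469 gave -0.52 (-0.74 to -0.31) in set 2.

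The other genes lay between -0.39 and 0.66 in both sets. Mef2a had log2 values of 0.66 and 0.11, Mef2c -0.39 and 0.34, Mef2d -0.22 and -0.09 and Six4 0.03 and 0.12. In set 1 Mef2c and Mef2d had percentiles of 15.1 and 21.7 among all genes, and in set 2 of 83.6 and 36.0. Taken over exon peaks alone, Mef2c was at 0.02 and 0.40 and Mef2a at 0.75 and 0.16. Mef2d and Six4 had SDs over the sets of 0.09 and 0.06, the smallest of the 7.

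**Figure D4:**
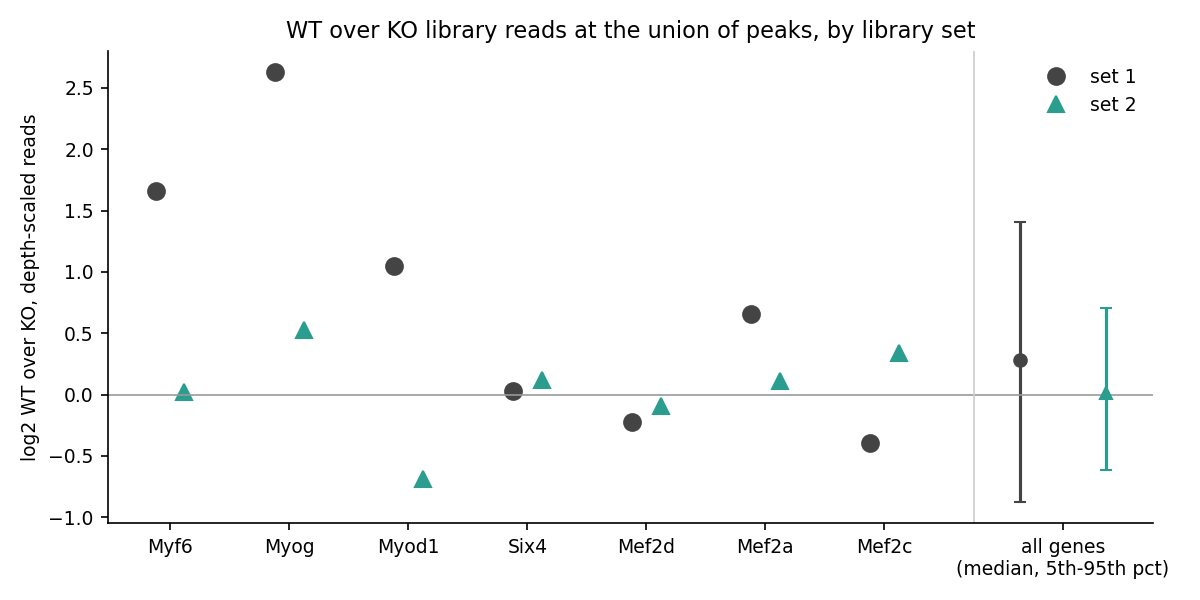
Depth-scaled log2 of WT over mir-486 KO reads (y axis) at the union of peaks of each gene, circles for set 1 and triangles for set 2, with the median and the 5th to 95th percentile of all genes at the right. Myog, Myf6 and Myod1 are at 2.63, 1.66 and 1.05 in set 1 and at 0.53, 0.02 and -0.68 in set 2.

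Past thresholds of 3 for both the log2 fold and the −log10 p in the direct lists, the 7 genes had 3 peaks of 145 in WT over KO of set 1, where 0.469% of all peaks passed. They were at the Myog 3′ UTR, chr1:134292232-134292330 (80 reads against 10, log2 3.16) and chr1:134292331-134292432 (71 against 6, 3.72), and in the Myod1 coding sequence, chr7:46376805-46376841 (18 against 2, 3.33). The overlapping WT peaks of Myog in set 2 had log2 values of 0.49 and 0.79, and no peak was listed at the Myod1 position. In WT over KO of set 2 the count was 0 of 284, with 0.0192% of all peaks past the thresholds. In KO over WT it was 0 of 224 in set 1 and 0 of 283 in set 2, with 0.179% and 0.0144%.

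Marker genes of other cell types moved in part with this comparison. The 5 satellite cell and myoblast markers, summed over the union of peaks, stood at -0.17 and -0.09 (log2 of WT over KO in sets 1 and 2), with Myf5 and in set 1 Pax7 without enough reads. Chodl held most of these reads, at -0.24 and -0.31. The others measured had few reads and the opposite sign: Cdh15 at 1.26 and 0.19, Calcr at 0.16 and 0.12, and Pax7 at 0.20 in set 2. The 6 myofibre genes stood at 0.66 and -0.04. The red blood cell genes, 4 measured in set 1 and 3 in set 2, stood at 1.57 and 1.42, and the macrophage genes, 2 and 4 measured, at 0.81 and 0.96. The 4 fibro-adipogenic genes stood at 0.03 and 0.91, the 4 endothelial genes at -0.46 and -0.10, the 3 smooth muscle and cardiac genes at 0.65 and 0.47, and the neuron and Schwann cell genes, 2 and 3 measured, at 0.08 and -0.82. The part of these in the values of the 7 genes was not tested.

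Related genes from lists of cofactors and partners were measured in the same way. Genes at least 2-fold over input made up 51.2% and 28.2% of all genes in WT of sets 1 and 2 and 20.3% and 24.6% in mir-486 KO. Of 9 measured MEF2 relatives and cofactors in WT of set 1, 2 were at least 2-fold over input, as were 0 of 10 in set 2, and the median was 0.82 and 0.54. Of 6 measured MyoD relatives and partners 3 were over that level in WT of both sets, with medians of 1.11 and 0.60, and in mir-486 KO 0 of 5 and 1 of 6. Those over it in WT were Id1, Id3 and Hes1 in both sets, while Tcf3, Tcf12 and Kat2b were below it in every library. Myf5, the remaining MyoD family gene, had no listed peak in any library. In the list of Six4 relatives with the Eya and Dach genes 1 of 4 and 1 of 6 were over it in WT, and of the other muscle transcription factors 5 of 8 and 4 of 10.

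In the direct comparison, 13.9% and 2.32% of all genes were at least 2-fold higher in WT in sets 1 and 2, and 3.83% and 1.55% in mir-486 KO. Beside these shares, 2 of 10 MEF2 relatives and cofactors were at least 2-fold higher in WT in set 1 and 0 of 11 in set 2. Of the MyoD relatives and partners 2 of 6 were higher in WT in set 1 and 0 of 8 in set 2. In the list of Six4 relatives with the Eya and Dach genes 2 of 7 were higher in mir-486 KO in set 1, an Eya and a Dach gene, and 0 of 7 in set 2. Genes of these lists with a peak past the thresholds in a direct list were Hdac4, a repressor of MEF2 (1.06 and -0.39, log2 of WT over KO in sets 1 and 2), Smarcd3, a chromatin remodelling subunit (1.15 and -0.0019), and Tead4, a TEA domain factor (0.99 and 0.08). Those 3 passed in WT over KO of set 1. Ppargc1a, a MEF2 coactivator of the oxidative programme (-0.24 and 0.58), passed in WT over KO of set 2, and Kat2b, an acetyltransferase partner of MyoD (0.38 and -0.15), in KO over WT of set 2.

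Seed matches were searched in the 3′ UTR peaks, extended by 25 nt on each side, for the 12 of 17 listed microRNAs with a mature sequence. The word for miR-206-3p, ACATTCC, was in 0 of 41, 0 of 49, 0 of 61 and 0 of 54 3′ UTR peaks of the 7 genes in WT set 1, KO set 1, WT set 2 and KO set 2. Over all 3′ UTR peaks, which vary in length, its share was 4.38%, 2.91%, 3.32% and 3.30%. The 3′ UTR of Six4 holds it once, outside any listed peak, and the other 6 genes do not hold it in their 3′ UTRs. The microRNAs without a sequence were miR-1a-3p, miR-133a-3p, miR-486a-5p, miR-23b-3p and miR-378a-3p.

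The 12 words occurred 15 times in the 3′ UTRs of the 7 genes, 7 of them inside or within 25 nt of a listed peak in at least 1 library and 3 in all 4. Mef2d held 5 and Six4 5, Mef2c 3, Mef2a 1 and Myf6 1, and Myod1 and Myog held 0. The word of miR-30a-5p, TGTTTAC, was in 2 of 41, 2 of 49, 2 of 61 and 3 of 54 3′ UTR peaks in WT set 1, KO set 1, WT set 2 and KO set 2, against 3.97%, 2.70%, 3.48% and 3.55% of all. Inside or within 25 nt of the miR-30a-5p word in Mef2d shown above, the most-read peak had 76 reads against 13 in input in WT of set 1 and 142 against 70 in WT of set 2. In mir-486 KO it had 29 against 13 in set 1 and 171 against 86 in set 2. The last of these peaks, chr3:88170238-88170418, ended before the word, which starts at 88170428, and the peaks of the other libraries covered it. In mir-486 KO of set 2 another listed peak covered the word, since chr3:88170405-88170487 lay inside listed peaks of all 4 libraries. The values of that covering peak are not given here. The log2 folds were 1.42, 0.49, -0.04 and 0.23.

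At the miR-92a-3p word of Mef2d, GTGCAAT, the reads were 31 against 4 and 47 against 44 in WT and 56 against 10 and 144 against 134 in mir-486 KO. The log2 folds of 1.83, -0.43, 1.28 and -0.66 put both libraries of set 1 above input and both of set 2 below it. At the miR-30a-5p word of Six4 the reads were 11 against 3 and 37 against 21 in WT and 11 against 4 and 26 against 11 in mir-486 KO, with log2 folds of 0.75, 0.29, 0.26 and 0.48. None of these 3 peaks was enriched in any library. Outside the 3′ UTRs, 3 further words lay inside or within 25 nt of exon peaks in all 4 libraries, and these were chosen after their values were seen. All were for miR-27b-3p, 1 in the Mef2a coding sequence, 1 in the Mef2c coding sequence and 1 in the 5′ UTR exon of Mef2c at chr13:83520385-83520481. A word is a description of the sequence only, and microRNAs joined to these messages were not analysed here.

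The genes with peak patterns most like those of the MEF2 genes were found by the Euclidean distance over 12 values, the log2 of the covered nt plus 1 in 3′ UTR, coding sequence and intron in the 4 libraries. Mef2a was nearest to Cdc14a (1.11) and Ate1 (1.14), Mef2c to Mbnl1 (0.91) and Tcf4 (1.31), and Mef2d to Nt5dc3 (1.41) and Ddi2 (1.46). The median distance to the 10145 other genes with a peak in all 4 libraries was 19.8, 22.7 and 17.5. The measure uses covered length, so genes of like length and depth lie close.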

How the data were processed

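Chimeric AGO2 eCLIP libraries and their inputs from tibialis anterior muscle were analysed, 2 total libraries per genotype. Another 4 libraries enriched for miR-486 were not analysed here. The authors trimmed adapters with cutadapt, aligned reads with STAR to GRCm38, called peaks in each library with CLIPper and collapsed overlapping peaks, without pooling replicates. The submitters' processing notes also name UMI-tools, FastQC and SAMtools. For each peak the authors deposited a log2 fold of reads between 2 libraries and the −log10 of its p-value, with values capped at 400. These columns are the authors' own comparisons. They were used to describe and filter peaks, and to recover reads.

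Peaks, genes and lists were chosen with earlier results of these data known. Genes came from GENCODE M21, the labels name M24, and 2 TEC genes overlap Mef2a on its strand. Regions were read at the peak midpoint, coding sequence before 3′ UTR, 5′ UTR, noncoding exon and intron. The lists hold no counts, so total depth is unknown. Reads were recovered because each list's folds equal a ratio of whole numbers times 1 constant: 99.973% to 99.998% of folds were whole ratios within a tolerance of 1e-09, and reads fixed in both lists of a library were the same in at least 99.997%. For 34 of 145, 65 of 224, 53 of 284 and 97 of 283 member peaks (WT and KO of set 1, then of set 2) only the smallest matching numbers are known. Median reads per peak over all genes were 6, 5, 7 and 8. Input depth was 0.458, 0.435, 0.695 and 0.590 times that of its library, and KO depth was 1.12 and 1.09 times WT depth in sets 1 and 2. Overlap and read functions were tested on simulated data.

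The 7 genes are all named. The rule for their peaks took enriched peaks listed in at least 2 libraries, the 2 coding or 3′ UTR peaks with the highest log2 fold in each library, peaks past the thresholds in a direct list, and 3′ UTR seed matches listed in all 4 libraries. Not all of these are printed. The most-read stretches shared by the 4 libraries, the 5′ UTR peaks and the enriched intron peak of Mef2c were chosen after their values were seen. Related genes were named only if past the thresholds in a direct list, except Myf5 and the measured genes of the MyoD list. No test was made across genotypes, since an exact permutation test of 2 against 2 libraries cannot give a p below 0.333. WT and KO were compared within each set. Intervals cover counting error only. Alternatives were other overlaps, merged peaks, other thresholds, regions and words, and each set alone. Python 3.11.15, pandas 2.3.3 and scipy 1.17.1 were used.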

Additional observations from a re-analysis of the deposited data

How the results depend on the processing

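Counts of listed peaks stayed within 1.5 times of their value in each library with other overlap rules or merged peaks. Counts of enriched peaks did not. With a log2 threshold of 1 there were 5 in KO set 1, 33 in WT set 2 and 34 in KO set 2, with a threshold of 4 there were 6 in WT set 1, 3 in WT set 2 and 3 in KO set 2, and with adjoining peaks merged 7 in WT set 1 and 3 in KO set 2. Each KO set alone gave 0 and 7 against a mean of 3.5. The median log2 fold of 3′ UTR peaks, 0.11 in WT and 0.09 in KO, was 2.59 and 1.94 over peaks with a −log10 p of at least 3, and 0.72 and 0.27 as a mean weighted by length. The median WT over KO fold at the WT peaks, 0.53 in set 1 and 0.31 in set 2, turned to -0.84 in set 1 at the KO peaks and to -0.21 after subtracting the median of all peaks, and was 0.31 over 3′ UTR peaks. In set 2 it was 0.056 at the KO peaks, 0.0098 after centring, -0.0063 as a difference of folds over input and 0.11 over summed reads, the last chosen after seeing the data. In set 1 the sign thus depended on whose peaks were used, and the report gives reads summed over both. Where peaks had to share 50% of their length, 42.8% and 21.8% of WT peaks recurred in place of 71.7% and 41.9%. The 6-nt miR-206-3p word was at 6 3′ UTR peaks and the other settings left 0. Added after seeing the data, the most-read peak alone gave 0.043 for Mef2c over input in KO set 1 and 0.98 for Mef2d in set 1, and differences of folds over input gave 0.49 and 0.049 for Mef2d in sets 1 and 2 and -0.20 for Six4 in set 2. A further 18 of 197 alternatives had the other sign, at reported values that were within the SD between the sets. Among them the differences of folds over input gave -0.26 for Myog and -0.20 for Myf6 in set 2 and 0.34 for Mef2c in set 1, the most-read peak gave 0.71 for Mef2c and -0.49 for Six4 in set 1, and set 2 alone gave -0.46 for the WT median of 3′ UTR peaks. The cause of these changes was not tested. WT and KO were paired by set in the within-set differences, and no fit with a replicate block was made because no test was run.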
